A study of Trichoderma reesei with 12 samples.

Results

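The genes described here are 150 of the 10879 genes of Trichoderma reesei that were expressed in constant darkness and close to silent in constant light in the wild-type. They were chosen from the wild-type libraries alone, as genes with a mean below 5 normalized counts in light and a mean of 20 or more in darkness. A normalized count is the number of reads on a gene divided by the size factor of its library. Of 204 genes that met both thresholds, 5 with numbers from TrE0655 to TrE0672 were left out and the 150 with the highest mean in darkness were kept as members. The low level in wild-type light and the high level in wild-type darkness are therefore the choice itself and not a result. The libraries of the mutant took no part in the choice.

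Trichoderma reesei is a filamentous fungus that secretes cellulases and that uses light as a signal for growth, asexual sporulation and enzyme production. Blue light photoreceptors (BLR1, BLR2 and ENV1) carry this signal in the fungus, and heterotrimeric G-protein signaling links it to the response to nutrients. Regulators of G-protein signaling (RGS proteins) speed up the hydrolysis of GTP by the G-protein alpha subunit and so shorten its active state. The mutant lacks rgs4 (TrG0496W), which encodes a protein of this class.

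The groups were Δrgs4 in constant light (LL), Δrgs4 in constant darkness (DD), QM6a in LL and QM6a in DD, with 3 libraries each. QM6a is the wild-type and the parent of Δrgs4, in which rgs4 was replaced by a hygromycin resistance marker. Δrgs4 is a single transformant that carries more than one copy of the deletion cassette, so that the deletion and other events of its transformation cannot be told apart in these libraries. All cultures grew for 96 h at 28 °C in shake flasks with cellulose as carbon source, in triplicate, and each library came from RNA depleted of ribosomal RNA.

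Each library held between 11249966 and 15844116 reads assigned to genes. The rgs4 gene had 0 to 5 reads in the 6 Δrgs4 libraries and 1470 to 2040 reads in the 6 QM6a libraries, as the labels state. Δrgs4 DD replicate 3 stood apart from the other Δrgs4 DD libraries for the members, and results that rest on it are given with and without it. The members took 0.00271%, 0.00347% and 0.00225% of the reads in the Δrgs4 LL libraries and 0.437%, 0.395% and 0.194% in the Δrgs4 DD libraries. In QM6a they took 0.00146%, 0.00198% and 0.00276% in LL and 0.294%, 0.381% and 0.318% in DD. In these bulk libraries, fewer cells with a transcript and less of it per cell cannot be told apart.

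At the threshold for light, the members with the highest QM6a LL means were TrA0832W, TrD1254C and TrA1904W with 4.99, 4.97 and 4.96 normalized counts. The nearest genes outside it were TrD0718C, TrD1102C and TrF0372W with 5.04, 5.15 and 5.19. At the lower end of the 150 ranks, TrC0021C, TrA1946W and TrA2094C had QM6a DD means of 34.6, 34.2 and 33.8, and the next genes, TrC1267W, TrF0302W and TrF0497W, had 33.7, 32.9 and 32.7. Neither edge fell in a gap of the levels. The left-out libraries show how far the choice rests on single samples. When the QM6a replicates numbered 1, 2 or 3 were left out of the rule, the 150 genes chosen shared 136, 137 or 128 with the members, and the LL library left out was below 5 normalized counts for 140, 131 or 109 of them. The DD library left out had 20 or more for 147, 144 or 148.

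The comparison whose libraries took no part in the choice is Δrgs4 in light against Δrgs4 in darkness. Its test is not fully independent of the choice, as the limit on reads and the spread also used the QM6a libraries. Nearly all members were also lower in light than in darkness in the mutant. Transcript levels were lower in Δrgs4 LL for 149 of the 150 members and higher for 0, called with limma at a log2 fold change beyond 0.58 in size and a Benjamini-Hochberg adjusted p below 0.05. Among all 8895 genes tested, 22% were called lower and 14.2% higher. All 150 members had enough reads for the test, although 149 of them had enough in the QM6a DD libraries alone. The median log2 fold change was -4.57 for the members and -0.01 for all genes tested, on the scale of log2(normalized count + 2), which understates the change of genes with few reads. At an unadjusted p below 0.05, 149 members were lower and 0 higher, against 33.2% and 30.3% of all genes tested, and limma-voom called 0 higher as well. Limma-voom called 133 members lower (21.4% of all genes tested), all of them among the 149. In the limma fit the spread of a gene came from its own replicates, pooled over all groups. That spread was then moved toward the value typical of genes with a similar mean over all 12 libraries. This can understate the spread of genes that are high in 1 condition only. By limma alone 16 members were called, and the reason was not tested.

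Summed over the 150 members, the Δrgs4 LL libraries had 388.9, 498.2 and 316.3 normalized counts, against 64450, 55949 and 26284 in Δrgs4 DD. For QM6a the sums were 200.4, 263.2 and 363.2 in LL, against 39984, 53205 and 44186 in DD. Each member's mean ranged in Δrgs4 LL from 0 to 13.4 with a median of 1.67, and in Δrgs4 DD from 10.3 to 4413 with a median of 94.6. The corresponding ranges in QM6a were 0 to 4.99 with a median of 1.58 in LL, and 33.8 to 3942 with a median of 97.3 in DD. Each member's LL level in Δrgs4 was at most 51.0% of its own DD level, with a median of 1.30%.

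**Figure D1:**
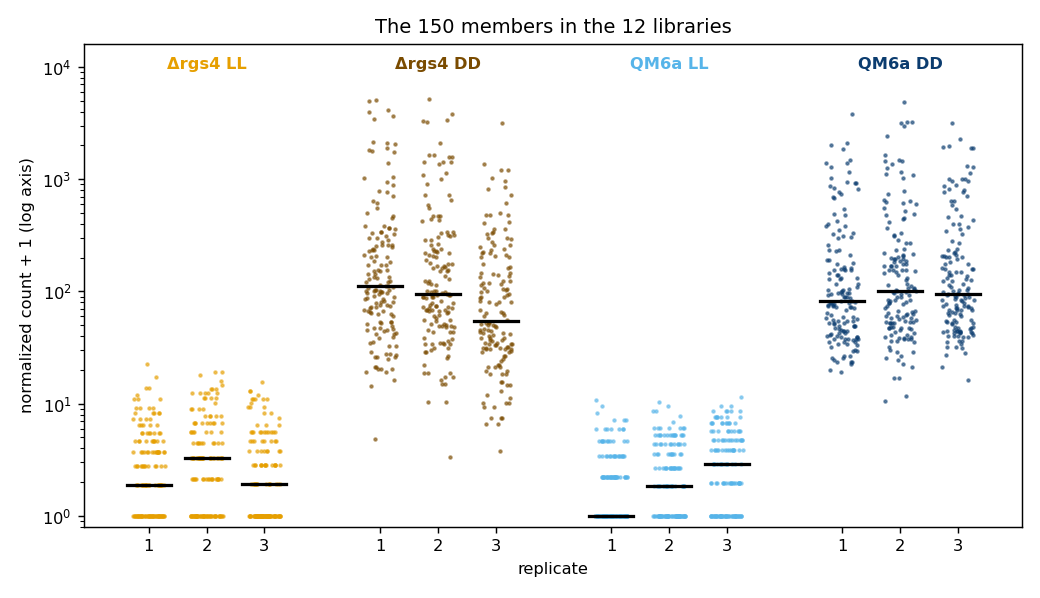
Levels of the 150 members (points) in each of the 12 libraries, as normalized counts plus 1 on a log axis, with the libraries grouped by strain and light on the horizontal axis and the median of each library as a black bar. The members lie near the bottom in all 6 LL libraries of both strains, and Δrgs4 DD replicate 3 has the lowest median of the 6 DD libraries, 53.4 normalized counts before 1 was added.

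For 147 members every Δrgs4 DD library was above every Δrgs4 LL library, a separation that 32.5% of all genes tested showed. In Δrgs4 LL, 32 members had 0 reads in all 3 libraries and 28 had 1 to 3 reads in all. A count of 0 over the 3 libraries allows up to 3 reads, which is 0.976 normalized counts, and covers counting error only. For the 32 members without reads, transcript levels in Δrgs4 DD were at least 12.5-fold to at least 2796-fold higher. The ratio of Δrgs4 DD to Δrgs4 LL was 10 or more for 135 members and 100 or more for 53, with bounds counted as values. Altogether 18 members had 0 reads in the LL libraries of both strains.

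The 10 members with the highest level in QM6a DD were TrG0832W, TrF0083C, TrB1968W, TrC1551C, TrC1508W, TrC1268W, TrE1278W, TrD0146W, TrA0865C and TrB1967C. None of them has a description of its product in the sources used here. TrG0832W, the most abundant member, had 12.7, 5.70 and 0 normalized counts in Δrgs4 LL, against 4946, 5123 and 3169 in Δrgs4 DD. In QM6a the same gene had 0, 3.38 and 3.79 in LL, against 3822, 4860 and 3144 in DD. The lowest DD library was far above the highest LL library in both strains, and the DD libraries of the strains overlapped. Its log2 fold change in Δrgs4 LL against DD was -9.47 ± 0.62 (SE) with an adjusted p of 2.44e-07.

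TrF0083C had 0 reads in the 3 Δrgs4 LL libraries, against 3672, 3312 and 1203 normalized counts in Δrgs4 DD, which is at least 2796-fold. QM6a LL had 0, 0 and 0.95 normalized counts, against 2119, 3222 and 2290 in QM6a DD. TrA0865C had no reads in any of the 6 LL libraries. Its DD levels were 1029, 1408 and 849 in Δrgs4 and 1278, 1266 and 1009 in QM6a, so that the gene was at least 1122-fold higher in darkness in the mutant and the strains overlapped. Among these 10, they had the fewest reads over the 6 LL libraries.

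TrC1508W and TrC1268W differed most between the Δrgs4 DD libraries among these 10. TrC1508W had 0.90, 2.28 and 0 normalized counts in Δrgs4 LL, against 3415, 1652 and 27.6 in Δrgs4 DD. TrC1268W had 6.33, 3.42 and 2.75 in Δrgs4 LL, against 5122, 3242 and 112 in Δrgs4 DD. In both genes replicate 3 was far below replicates 1 and 2 and still above all 3 LL libraries. QM6a DD held 1485, 3217 and 1924 for TrC1508W and 1401, 2431 and 1135 for TrC1268W. Limma called both genes lower in Δrgs4 LL (adjusted p of 0.000513 and 9.36e-05), whereas limma-voom called neither (adjusted p of 0.397 and 0.27).

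TrE1278W had the lowest ratio of the Δrgs4 DD mean to the QM6a DD mean among these 10. It had 2.71, 2.28 and 0 normalized counts in Δrgs4 LL, against 272, 472 and 610 in Δrgs4 DD. QM6a had 1.22, 1.69 and 2.84 in LL, against 1384, 1106 and 1286 in DD. All 3 Δrgs4 DD libraries were below all 3 QM6a DD libraries, while the LL libraries of both strains lay in the same low range. The remaining 4, TrB1968W, TrC1551C, TrD0146W and TrB1967C, had Δrgs4 LL means of 1.97 to 4.38 and Δrgs4 DD means of 1165 to 3030.

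**Figure D2:**
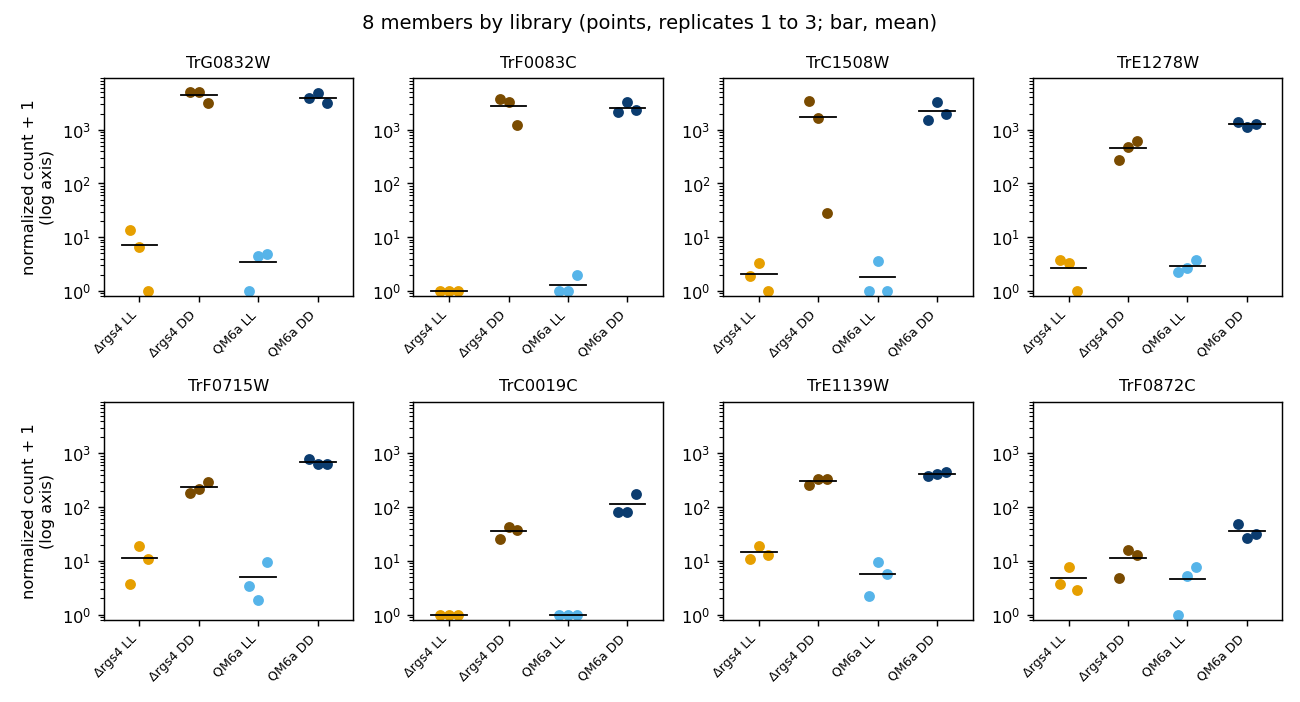
Levels of 8 members by library, as normalized counts plus 1 on a log axis, for Δrgs4 LL, Δrgs4 DD, QM6a LL and QM6a DD from left to right in each panel (points, replicates 1 to 3 from left to right; bar, their mean). TrC1508W shows 1 low Δrgs4 DD library (27.6 normalized counts), TrE1278W, TrF0715W and TrC0019C have all Δrgs4 DD libraries below all QM6a DD libraries, and TrF0872C is the member that limma did not call in Δrgs4 LL against Δrgs4 DD.

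TrF0872C was the member that did not pass the test in Δrgs4. It had 2.71, 6.84 and 1.83 normalized counts in Δrgs4 LL, against 3.84, 15.2 and 11.96 in Δrgs4 DD, and these libraries overlapped. The log2 fold change was -1.05 ± 0.59 (SE) with an adjusted p of 0.149. QM6a DD had 48.3, 25.7 and 30.2, above all Δrgs4 DD libraries, and QM6a LL had 0, 4.23 and 6.64.

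TrA0832W and TrC1427C passed the test although their libraries overlapped. TrA0832W had 4.52, 12.5 and 4.58 normalized counts in Δrgs4 LL, against 73.0, 85.5 and 5.52 in Δrgs4 DD (adjusted p of 0.0333). TrC1427C had 0, 12.5 and 3.67 in Δrgs4 LL, against 79.7, 48.0 and 9.20 in Δrgs4 DD (adjusted p of 0.0124). In both genes the overlap came from Δrgs4 DD replicate 3. TrC1244C had the highest LL level relative to darkness, 4.52, 10.3 and 11.002 in Δrgs4 LL, against 15.4, 14.1 and 21.2 in Δrgs4 DD, with an adjusted p of 0.0367 that was 0.148 without Δrgs4 LL replicate 1. When each of the 12 libraries was left out in turn, TrA0832W was called in 8 of 12 fits (lost without Δrgs4 DD replicate 1 or 2 or Δrgs4 LL replicate 1 or 3), TrC1427C in 10 (lost without Δrgs4 DD replicate 1 or Δrgs4 LL replicate 1) and TrC1244C in 8 (lost without QM6a DD replicate 2, Δrgs4 DD replicate 1 or 3 or Δrgs4 LL replicate 1). The calls of the other 146 members were kept in every such fit.

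In light the members were close to the limit of detection in both strains. The mean in Δrgs4 LL was above that in QM6a LL for 87 members, below it for 45 and equal for 18, all of them with 0 reads in both strains. A QM6a LL mean below 5 was required by the choice, whereas Δrgs4 LL had no such limit, so that all counts between the strains are a description. In Δrgs4 LL 119 members had a mean below 5, 31 had 5 or more and 4 had 10 or more. Limma called 2 members higher in Δrgs4 LL than in QM6a LL and 0 lower, where 0.427% and 1.69% of all genes tested were called. At an unadjusted p below 0.05 these numbers were 9 (6%) and 1 (0.667%), against 13.7% and 12.7% of all genes tested. Limma-voom called 0 in either direction (1.53% of all genes tested lower, 0.326% higher).

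The 10 members with the highest Δrgs4 LL mean were TrE1139W, TrD1254C, TrB1918C, TrF0715W, TrB0439C, TrB1570C, TrC1244C, TrG0414C, TrB0009W and TrA1962W, with means of 13.4 for the first and 7.75 for the last. TrE1139W had 9.95, 18.2 and 11.9 normalized counts in Δrgs4 LL, against 1.22, 8.46 and 4.74 in QM6a LL. TrD1254C had 12.7, 14.8 and 10.1, against 4.89, 3.38 and 6.64, and TrB0439C had 8.14, 11.4 and 10.1, against 2.44, 5.08 and 6.64. In these 3 genes all Δrgs4 LL libraries were above all QM6a LL libraries. This separation was seen in 6 members, and in 17.9% of all genes tested.

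TrB1960C was the other member called between the strains in light. It had 1.81, 4.56 and 9.17 normalized counts in Δrgs4 LL, against 0, 0 and 0.95 in QM6a LL, a log2 difference of 1.52 ± 0.38 (SE), and that of TrE1139W was 1.30 ± 0.36. TrE1139W was called in 2 and TrB1960C in 7 of the 12 fits with 1 library left out, and in Δrgs4 LL they had 40 and 16 reads over the 3 libraries. In Δrgs4 DD, TrB1960C had 52.8, 50.4 and 80.1 normalized counts and TrE1139W had 255, 330 and 331. Their Δrgs4 LL means were 8.48% and 4.38% of these Δrgs4 DD means. The lead of TrB1918C rested on single libraries, with 21.7, 11.4 and 0 in Δrgs4 LL, against 0, 3.38 and 10.4 in QM6a LL.

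In constant darkness most members had similar levels in Δrgs4 and QM6a. The Δrgs4 DD mean was within 2 times the QM6a DD mean for 131 members, or 87.3%, where 99.0% of genes with a QM6a DD mean of 20 or more lay within this range. It was over 2 times for 3 members and under 0.5 times for 16, with ratios from 0.275 to 2.34 and a median of 1.09. Limma called 0 members in either direction. Of all genes tested, 0.0899% were called lower and 0% higher. At an unadjusted p below 0.05, 18 members (12%) were lower and 1 (0.667%) was higher, against 5.74% and 6.61% of all genes tested. Limma-voom called 5 lower and 0 higher (0.337% and 0.101% of all genes tested). The 5 were TrE1278W, TrF0715W, TrG1069W, TrC1105C and TrC0397C. Since QM6a DD libraries ranked the members, these counts describe them and were not used as a test.

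**Figure D3:**
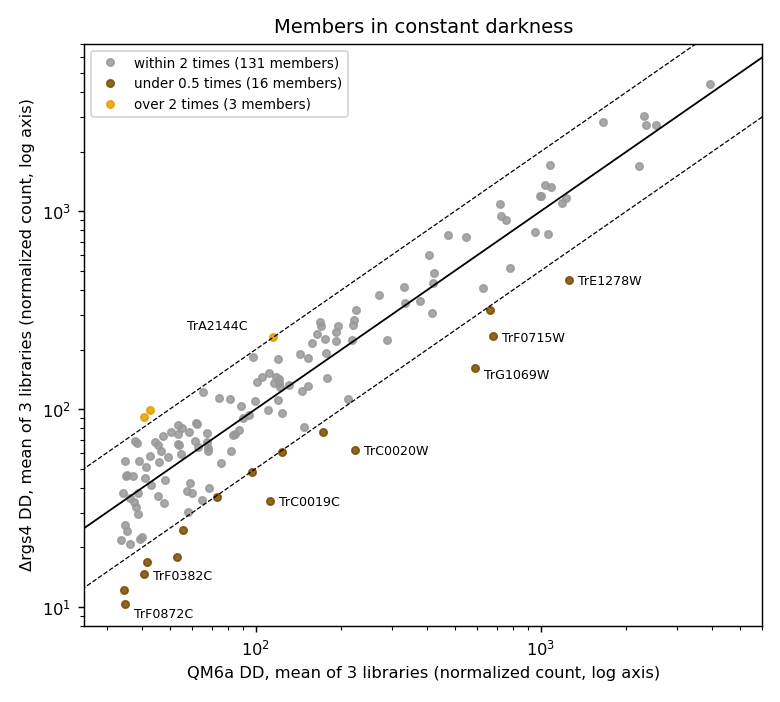
Mean level in Δrgs4 DD (vertical) against the mean level in QM6a DD (horizontal) for each member, in normalized counts on log axes and as means of 3 libraries; the solid line marks equal levels and the dashed lines 2 times and 0.5 times. Of the 150 members 131 lie between the dashed lines, 16 below and 3 above them.

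Every QM6a DD library was above every Δrgs4 DD library for 24 members, where 7.39% of all genes tested showed this, and 12 of these 24 were under 0.5 times. The reverse held for 5 members, TrB0849W, TrB0850W, TrB0851C, TrA1961C and TrA2148W, where 9.15% of all genes tested showed it. All 5 of these lie in neighbourhoods of members that are described below.

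The 5 members with the largest negative log2 difference between the strains in darkness were TrC1508W, TrG1069W, TrF0382C, TrF0872C and TrC0020W. TrG1069W had 122, 117 and 246 normalized counts in Δrgs4 DD, against 546, 444 and 773 in QM6a DD, a log2 difference of -1.90 ± 0.60 (SE) with no overlap. TrF0382C had 31.7, 9.37 and 2.76, against 57.7, 36.4 and 27.2, and its libraries overlapped. TrC0020W had 67.3, 70.3 and 49.7, against 129, 139 and 401, without overlap, although QM6a DD replicate 3 was far above the other QM6a libraries. The value of TrC1508W, -1.93 ± 1.34 (SE), came from Δrgs4 DD replicate 3 and was 0.18 without that library.

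The 5 with the largest positive log2 difference were TrA2144C, TrD0074W, TrF1124C, TrC0005C and TrD0077C. TrA2144C had 283, 288 and 122 normalized counts in Δrgs4 DD, against 88.0, 151 and 107 in QM6a DD, a log2 difference of 0.93 ± 0.36 (SE). TrD0074W had 46.1, 30.4 and 221, against 36.9, 16.1 and 74.5, and TrF1124C had 37.5, 28.1 and 207, against 24.6, 16.1 and 81.5. These 2 genes on different chromosomes were highest in replicate 3 of both strains, and their log2 differences were 0.07 and 0.01 without Δrgs4 DD replicate 3. TrC0005C had 309, 309 and 209, against 116, 166 and 221, and TrD0077C had 154, 166 and 46.9, against 54.9, 79.2 and 61.4. In all 5 genes the libraries of the strains overlapped.

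The study's table of genes called by its authors between Δrgs4 and QM6a in these libraries lists 8 members, or 5.33%, and 205 of all genes, or 1.88%, and this list is not independent of their direction. All 8 had every QM6a DD library above every Δrgs4 DD library, as did 67, or 32.7%, of the 205 listed genes, and 29, or 14.1%, of the 205 had the reverse. TrG1028C is described there as an FKBP-type peptidyl-prolyl cis-trans isomerase, an enzyme class that turns proline bonds during protein folding. It had 96.1, 72.6 and 75.5 normalized counts in Δrgs4 DD, against 155, 166 and 123 in QM6a DD, and 3.62, 2.28 and 0.92 in Δrgs4 LL. TrC0019C is described as an aspartyl-tRNA synthetase, the enzyme class that loads aspartate onto its tRNA for translation. It had 24.98, 42.2 and 35.9 in Δrgs4 DD, against 80.4, 81.3 and 175 in QM6a DD, and no reads in any LL library of either strain.

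TrF0715W and TrE1278W carry no description in that table. TrF0715W had 181, 220 and 297 normalized counts in Δrgs4 DD, against 775, 627 and 644 in QM6a DD, a log2 difference of -1.57 ± 0.53 (SE). In LL it had 2.71, 18.2 and 10.1 in Δrgs4, against 2.44, 0.85 and 8.53 in QM6a, so that the strains overlapped there. TrC0398W (orphan protein) had 238, 230 and 480 in Δrgs4 DD, against 678, 518 and 800 in QM6a DD. Its neighbour TrC0397C (unknown protein) had 66.3, 60.9 and 102, against 162, 155 and 201. The other 2, TrC1105C and TrE1139W, both described as unknown proteins, had means of 112 and 305 in Δrgs4 DD, against 211 and 416 in QM6a DD.

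The members spread widely between replicates in darkness. The median SD of log2(normalized count + 2) over the 3 Δrgs4 DD libraries was 0.59 for the members and 0.14 for the 7039 other genes in the same range of QM6a DD means. In QM6a DD it was 0.35 for the members and 0.12 for the others. Δrgs4 DD replicate 3 was the lowest of its group for 93 members, or 62.0%, against 39.3% of genes with a QM6a DD mean of 20 or more, and lay below 0.25 times the mean of replicates 1 and 2 for 37 members, or 24.7%, against 2.19%. In 9 members it was instead over 2 times that mean. For 35 of the 37 low members replicate 3 was above all Δrgs4 LL libraries. Among the QM6a DD libraries, replicate 3 was over 2 times the mean of the other libraries for 17 members, or 11.3%, against 1.47% of genes.

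Without Δrgs4 DD replicate 3, 5 members were called lower and 2 higher in Δrgs4 DD than in QM6a DD, where 1.46% and 1.74% of all genes tested were called, and the median ratio became 1.16. The 5 were TrE1278W, TrC0398W, TrD0691C, TrC0019C and TrC1244C, and the 2 were TrC1268W and TrA2144C. At an unadjusted p below 0.05, 19 members (12.7%) were then lower and 24 (16%) higher in Δrgs4 DD. Of all genes tested, 10.2% and 13.1% were. With all libraries, 18 members (12%) were lower and 1 (0.667%) was higher, beside 5.74% and 6.61% of all genes tested. Among the members, leaving out Δrgs4 DD replicate 3 thus changed mainly the number of higher ones. The count of members called lower in Δrgs4 LL against Δrgs4 DD was 148 without this library and that of members called higher 0, beside 22.6% and 14.3% of all genes tested.

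The change between light and darkness was compared between the strains as an interaction. Limma called 0 members, beside 0.506% of all genes tested in the negative direction and 0.202% in the positive direction. At an unadjusted p below 0.05, 2 members (1.33%) had a more negative and 15 (10.0%) a less negative change in Δrgs4, against 9.04% and 8.51% of all genes tested, so that the share of the 15 was near that of all genes. Limma-voom called 0 (0.337% and 0.112% of all genes tested). Without Δrgs4 DD replicate 3, 3 members were called with a less negative change in Δrgs4, TrC1105C, TrD0691C and TrC1244C, where 1% of all genes tested was called in this direction. At an unadjusted p below 0.05, 12 members (8%) then had a more negative and 16 (10.7%) a less negative change. Of all genes tested, 10.9% lay in each direction. The interaction includes the QM6a contrast that the choice used, so that its counts of members are a description and were not used as a test. TrC1244C had an interaction value of 2.17 ± 0.46 (SE) on the log2 scale in the fit of all 12 libraries. The contrast of QM6a LL against QM6a DD, which the choice used, gave 150 members lower, beside 21.6% of all genes tested, and nothing is read from it.

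The same thresholds applied to the Δrgs4 libraries gave 200 genes, against 199 in QM6a when TrE0655 to TrE0672 were left out of both. Both lists shared 149 genes, which is 74.5% of the Δrgs4 list and 74.9% of the QM6a list. Of the 150 members, 115 met both thresholds in Δrgs4. The light threshold was missed by 31, the darkness threshold by 5, and both by 1 of these. The 5 below 20 normalized counts in Δrgs4 DD were TrG1060W, TrC1244C, TrF0382C, TrF0872C and TrC0021C. Among the 51 genes that met the thresholds in Δrgs4 only, 20 had a QM6a LL mean of 5 or more and 33 had a QM6a DD mean below 20.

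The identifiers were read as a chromosome letter, a number that counts genes along it, and a final letter, W or C, for the strand. The 150 members lay on all 7 chromosome letters, with 38 on A, 19 on B, 25 on C, 18 on D, 15 on E, 20 on F and 15 on G. This was 0.961% of the genes on B, the lowest share, and 1.77% of those on A, the highest. The letter W ended 73 identifiers and C ended 77. Within 25 gene numbers of a chromosome end lay 25 members, or 16.7%, against 3.22% of all genes, and within 50 numbers 32, or 21.3%, against 6.44%. These 32 were on A (9), B (7), C (7), E (6), D (2) and F (1), with 0 on G. The 25 include the neighbourhoods that start at TrA2142C (6 members), TrB1967C (3), TrC0019C (3) and TrE0001C (3), described below. Counts at the ends and counts of neighbouring members therefore share genes. Positions are gene ranks, since no coordinates were used.

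**Figure D4:**
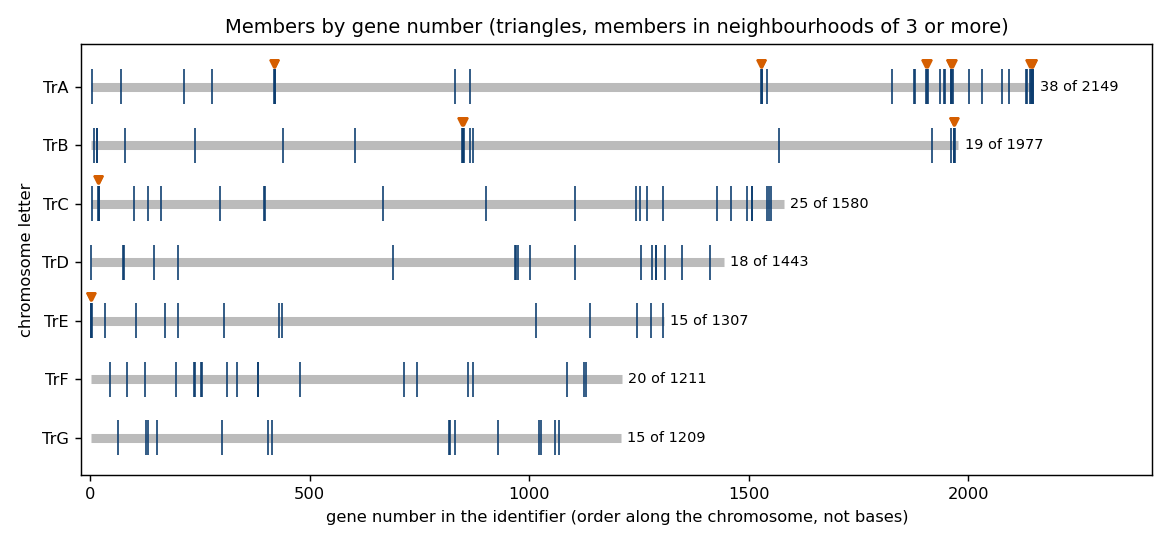
The 150 members (dark ticks) by gene number along the 7 chromosome letters (grey bars from the lowest to the highest number), with orange triangles over the members in neighbourhoods of 3 or more and the number of members of all genes at the right. The upper end of A and the ends of B, C and E hold groups of ticks, and G has none within 50 numbers of an end.

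Among the members at the ends were TrE0001C, the lowest number on E, and TrA2148W, with only TrA2149C above it on A. The median log2 fold change in Δrgs4 LL against DD was -5.25 for the 25 members within 25 numbers of an end and -4.43 for the other members. Genes near the ends that are not members were counted in the same way. Of 194 such genes tested within 25 numbers, 103, or 53.1%, were called lower and 28, or 14.4%, higher, against 19.9% and 14.5% of the other genes tested that are not members.

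Members also lay beside each other. Another member was the direct neighbour of 38 members, or 25.3%, whereas 2.59% of all genes had a member as direct neighbour. A member within 3 gene numbers was found for 58 members, or 38.7%, and for 6.79% of all genes. When members up to 3 numbers apart were joined, 32 members fell into 9 neighbourhoods of 3 or more and 26 into 13 pairs, and 92 stood alone. Of 23 pairs of directly adjacent members, 12 had letters pointing away from each other (C then W), 6 toward each other and 5 the same way. Of all 10869 adjacent pairs of genes, 29.1%, 29.1% and 41.8% did so in this order. Reads from overlapping neighbours cannot be told apart here, as the strand setting of the counting is not given in the sources used.

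The largest neighbourhood had 6 members near the upper end of chromosome A, TrA2142C, TrA2144C, TrA2145W, TrA2146C, TrA2147C and TrA2148W. TrA2144C, TrA2145W, TrA2146C and TrA2147C had 0 reads in all Δrgs4 LL libraries. TrA2147C had 259, 256 and 224 normalized counts in Δrgs4 DD, against 158, 185 and 232 in QM6a DD, and 0 reads in QM6a LL too. The gene between the first members, TrA2143C, is not a member and had 52.4, 82.1 and 63.3 normalized counts in Δrgs4 LL, against 262, 246 and 259 in Δrgs4 DD. On the lower side, TrA2140W and TrA2141C had means of 135 and 125 in Δrgs4 LL, against 231 and 404 in Δrgs4 DD. In LL the 6 members were thus near 0, and these 3 genes were not.

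On chromosome B, TrB0848C, TrB0849W, TrB0850W and TrB0851C followed each other without a gap. Together they had 2 reads in the 3 Δrgs4 LL libraries, 1 of TrB0849W and 1 of TrB0851C, and 0 in QM6a LL. TrB0848C had 329, 434 and 475 normalized counts in Δrgs4 DD, against 349, 289 and 358 in QM6a DD. The sums over the 4 genes were 1083, 1200 and 1155 in Δrgs4 DD, against 925, 835 and 910 in QM6a DD, and these libraries did not overlap. The genes on both sides were expressed in light, TrB0847C with a mean of 394 in Δrgs4 LL, against 442 in Δrgs4 DD, and TrB0852C with 290, against 237. Neither of these 2 was called.

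TrA0420W, TrA0421C and TrA0422W had, of the 9 neighbourhoods, the largest drop in Δrgs4 DD replicate 3. Their sums were 0, 13.7 and 3.7 normalized counts in Δrgs4 LL, against 3569, 2967 and 102 in Δrgs4 DD. In QM6a they were 0, 1.7 and 4.7 in LL, against 973, 2239 and 1405 in DD. TrA0422W had 0 reads in all 6 LL libraries and 1049, 1137 and 44.2 normalized counts in Δrgs4 DD, against 307, 790 and 546 in QM6a DD. Limma called all 3 genes lower in Δrgs4 LL and limma-voom called none of the 3. Directly below them TrA0419C, which had too few reads for the test, had 0.90, 0 and 0 in Δrgs4 LL, against 16.3, 10.5 and 0.92 in Δrgs4 DD. Among the other flanking genes, TrA0418C and TrA0425W were called lower as well, with log2 fold changes of -1.02 and -0.64.

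TrC0019C, TrC0020W and TrC0021C, near the lower end of chromosome C, had lower sums in the mutant than in QM6a in darkness. Their sums in Δrgs4 LL were 0 in all 3 libraries, against 106, 122 and 99.4 in Δrgs4 DD, and in QM6a 1.2, 0 and 0 in LL, against 232, 231 and 647 in DD. All Δrgs4 DD sums were below all QM6a DD sums. The sums of TrA1904W, TrA1907C and TrA1908W had this order too, and those of TrB0848C to TrB0851C the reverse. TrC0021C alone overlapped, with 13.4, 9.37 and 13.8 in Δrgs4 DD, against 22.7, 10.7 and 70.4 in QM6a DD. Limma called none of TrC0019C, TrC0020W and TrC0021C between the strains in DD (adjusted p of 0.0839, 0.136 and 0.467). The next gene below, TrC0018C, went the other way with light. It had 4959, 2836 and 3668 normalized counts in Δrgs4 LL, against 757, 848 and 469 in Δrgs4 DD, and was called higher. On the other side TrC0022W had means of 276 in Δrgs4 LL and 288 in Δrgs4 DD.

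**Figure D5:**
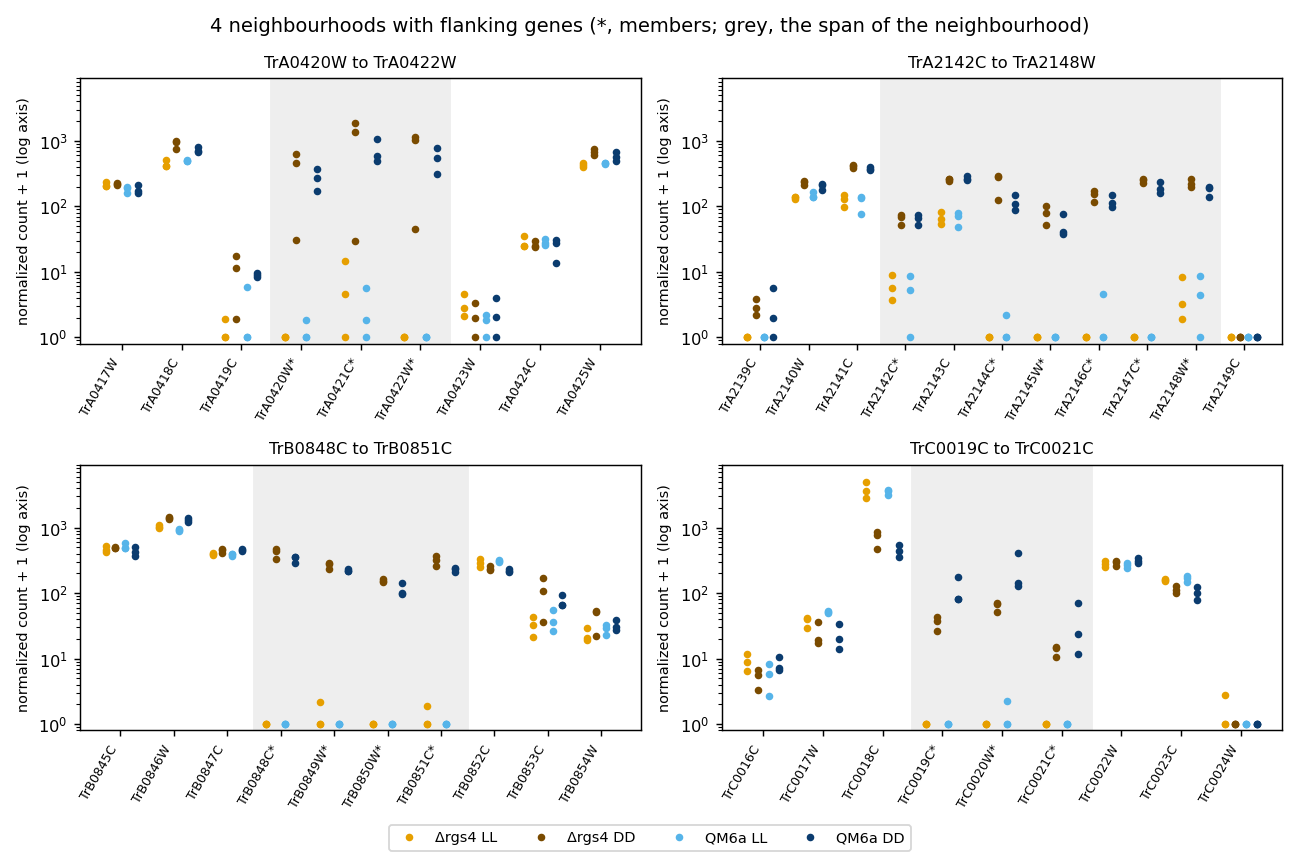
Levels along 4 neighbourhoods, with genes in the order of their numbers on the horizontal axis and normalized counts plus 1 on a log vertical axis (points, single libraries; colours from left to right, Δrgs4 LL, Δrgs4 DD, QM6a LL and QM6a DD; asterisks, members; grey, the span of the neighbourhood). In each panel the members are near the bottom in LL in both strains. Of the genes between and near them, TrA0425W, TrA2143C, TrB0852C and TrC0022W had 47.7 or more normalized counts in every LL library. Others had lower levels than these genes in LL, such as TrA0424C with 23.8 to 34.4 and TrB0854W with 18.3 to 31.8. Neither TrA0424C nor TrB0854W was called in Δrgs4 LL against Δrgs4 DD.

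TrE0001C, TrE0003W and TrE0004C, at the lower end of chromosome E, had sums of 7.2, 6.8 and 4.6 normalized counts in Δrgs4 LL, against 594, 561 and 42.3 in Δrgs4 DD. In QM6a the sums were 4.9, 3.4 and 4.7 in LL, against 254, 528 and 333 in DD. The gene between them, TrE0002C, had means of 1.1 in Δrgs4 LL and 12.9 in Δrgs4 DD, under the threshold for darkness, and was called lower too. TrE0005W, directly above, had 6.3, 2.3 and 2.8 in Δrgs4 LL, against 954, 809 and 47.9 in Δrgs4 DD, and is no member because its QM6a LL mean was 11.9.

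TrB1967C, TrB1968W and TrB1970W, near the upper end of chromosome B, had the highest sums of the 9 in darkness, with 22.6, 5.7 and 0.9 normalized counts in Δrgs4 LL, against 6162, 5464 and 1729 in Δrgs4 DD. In QM6a they had 3.7, 9.3 and 13.3 in LL, against 3702, 5029 and 3406 in DD. TrB1966W beside them had means of 2273 in Δrgs4 LL and 1949 in Δrgs4 DD and was not called. Between the members, TrB1969W had means of 2.4 in Δrgs4 LL and 8.5 in Δrgs4 DD.

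TrA1904W, TrA1907C and TrA1908W lay in a wider stretch of genes that were lower in light in Δrgs4. TrA1904W had 5.4, 2.3 and 4.6 normalized counts in Δrgs4 LL, against 607, 650 and 1031 in Δrgs4 DD, and 8.6, 2.5 and 3.8 in QM6a LL, against 1146, 1030 and 1012 in QM6a DD. The genes between, TrA1905W and TrA1906C, had means of 1.3 and 3.5 in Δrgs4 DD. Outside the group TrA1909W had means of 6.5 in Δrgs4 LL and 1251 in Δrgs4 DD, and TrA1903C had 134 and 2377. Among the 3 gene numbers on either side of the group, 5 genes were tested and all 5 were called lower in Δrgs4 LL.

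TrA1961C, TrA1962W, TrA1964C and TrA1966W had sums of 13.6, 21.7 and 12.8 normalized counts in Δrgs4 LL, against 492, 459 and 502 in Δrgs4 DD. In QM6a they had 6.1, 11.9 and 6.6 in LL, against 466, 390 and 361 in DD. TrA1965W between them met both thresholds with a QM6a DD mean of 22.2 but ranked below the first 150, and TrA1963W had means of 7.9 in Δrgs4 LL and 22.9 in Δrgs4 DD. TrA1529C, TrA1530C and TrA1531C differed widely between libraries in darkness, with sums of 319, 45.7 and 543 in Δrgs4 DD, against 152, 116 and 354 in QM6a DD. In LL they had 2.7, 9.1 and 0 in Δrgs4, against 0, 4.2 and 2.8 in QM6a.

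The genes directly beside members were counted for Δrgs4 LL against Δrgs4 DD as well. Of 244 genes that are no members and have a member as direct neighbour, 175 were tested, of which 83, or 47.4%, were called lower and 15, or 8.57%, higher. Among all tested genes that are no members, these shares were 20.7% and 14.5%. The median log2 fold change in Δrgs4 LL against DD was -0.61 for the genes beside members and -0.01 for all genes tested.

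None of the 6 gene lists described beside the members held a member. The lists came from descriptions in the study's table of 205 genes and comprised 20 transporters and permeases, 8 carbohydrate active enzymes, 11 secreted proteins, 5 transcription factors and 3 secondary metabolism genes. The last list was the siderophore cluster TrE0011C to TrE0016W with 6 genes. Since only genes called by the authors between the strains carry such a description, a count of 0 says nothing about these functions among the other members.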

How the data were processed

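RNA was sequenced from 12 cultures, 3 each of Δrgs4 LL, Δrgs4 DD, QM6a LL and QM6a DD, grouped by their labels. The authors mapped the reads with HISAT2 2.2.1, obtained gene counts with featureCounts and, with DESeq2, made the deposited log2 values, which are variance-stabilized. How strand and multi-mapping were handled in counting is not given in the sources used. A second table was not used, because no label names the samples of its 12 columns.

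The log2 values were inverted to normalized counts, and their smallest steps gave whole reads (within 0.01 for 99.99% or more of values in each library). Genes with 10 or more reads in at least 3 libraries were tested with limma 3.58.1 (R 4.3.3, trended variance) on log2(normalized count + 2), with 4 group means and Benjamini-Hochberg adjustment over all genes tested. This scale understates changes of low genes. A gene was called at a log2 fold change beyond 0.58 in size and an adjusted p below 0.05. Replicates were separate flasks. Intervals and floors cover counting error only. The steps were tested on simulated data, in which the changed genes were well expressed and their changes smaller than those of most members. That test does not cover genes close to the limit of detection in light or with a wide spread between replicates.

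The members and lists were chosen with earlier results of these data known. Named are the 10 members with the highest QM6a DD mean and the 10 with the highest Δrgs4 LL mean, the 5 with the largest log2 difference between strains in DD in each direction, members of neighbourhoods with the genes between them, members in the study's table, and the genes nearest each threshold. Other members are named where a count of them is small, and were then chosen after their values were seen, as were the genes beside neighbourhoods. Alternatives were other scalings, pseudocounts, filters, tests, thresholds, a replicate block, leaving out each library, and other limits for the choice. The final letter of an identifier was taken as the strand. Figures were drawn with matplotlib 3.10.9.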

Additional observations from a re-analysis of the deposited data

How the results depend on the processing

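The count of members called lower in Δrgs4 LL against Δrgs4 DD ranged from 146 to 149 when each library was left out, and that of QM6a LL against QM6a DD from 149 to 150. In Δrgs4 the count was 133 with limma-voom, 131 with the values as deposited and 142 with a test against 1.5-fold. In QM6a it was 135, 142 and 149 in the same order. For Δrgs4 DD against QM6a DD (0 called) limma-voom called 5 members, the values as deposited 4, and fits with 1 library left out 0 to 7, with 7 without Δrgs4 DD replicate 3. For Δrgs4 LL against QM6a LL (2 called, both higher) the count was 3 with a pseudocount of 0.5, 1 of them lower, and 1 with upper-quartile scaling, with a pseudocount of 5, with a filter of 1 read and with only the 6 libraries compared, 0 with limma-voom, the values as deposited and a test against 1.5-fold, and 0 to 3 with 1 library left out. For the interaction (0 called) it was 1 with a pseudocount of 5, 4 with the values as deposited and 0 to 3 with 1 library left out. The cause was not tested. The log2 difference of TrC1508W in DD was -1.93 and ranged from -3.24 to 0.18 with 1 library left out, with 0.18 without Δrgs4 DD replicate 3.

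The number of genes that met the thresholds (199) was 117 with a QM6a LL mean below 2, 314 below 10, 112 with a QM6a DD mean of 50 or more and 118 with the limits set on every library. The members in neighbourhoods (32) were 21 with the LL limit of 10, 19 with the DD limit of 50, 18 with a largest step of 1 and 48 without the limit of 150 genes. Requiring 10 reads in every library left no member to test, and the interaction cannot be computed from 6 libraries. The median ratio without Δrgs4 DD replicate 3 was added after seeing the data.

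With the replicate number as a block, 148 members were called in Δrgs4 LL against DD, 3 in Δrgs4 LL against QM6a LL, 0 in both other comparisons of the strains and 150 in QM6a. Of 18 same-number correlations of deviations, 6 were over 0.1 (range -0.41 to 0.35), so that the numbers were not taken to pair the samples.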
